A study of Homo sapiens with 6 samples.

Results

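The aldo-keto reductases examined here were AKR1C1, AKR1C2, AKR1C3, AKR1B1, AKR1B10 and AKR1A1, members of a superfamily of enzymes that reduce aldehydes and ketones with NADPH. Every probe set (a set of short oligonucleotides that read 1 transcript or several alike) whose platform annotation lists one of these symbols was taken. This gave 10 probe sets that list a single member gene, and 1 further probe set that lists both AKR1C2 and AKR1C1 and is described apart, out of 54675 probe sets on the array. These covered 4 of the 6 genes, of 19775 genes with a single-symbol probe set, with 5 probe sets for AKR1C1, 3 for AKR1C2, 1 for AKR1C3 and 1 for AKR1B10. No probe set is listed for AKR1B1 or AKR1A1 in the annotation used, so both genes were not analysed here.

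To explore how their expression varied after silencing of the inflammatory cytokine interleukin-1β (IL-1β), arrays were compared for Cal27 cells. This established human line from a squamous carcinoma of the tongue carried a lentiviral short hairpin RNA against IL-1β (LV-shIL-1β, 3 arrays) or a scrambled hairpin (LV-shNC, 3 arrays). Both groups were transduced with lentivirus and selected with puromycin at 2 µg/mL for 2 weeks, and biotin-labelled cRNA from 6 µg of total RNA was hybridised to Affymetrix Human Genome U133 Plus 2.0 arrays. The labels give 1 hairpin sequence against IL-1β. Whether the 3 arrays per group stand for independent cultures is not given in the sources used here, and the p-values therefore reflect the spread among arrays alone, which may be technical.

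AKR1C1, AKR1C2 and AKR1C3 lie in 1 cluster and reduce steroids, prostaglandins and the reactive aldehydes of lipid peroxidation. AKR1B1 (aldose reductase) makes sorbitol from glucose, AKR1B10 reduces retinal and dietary aldehydes, and AKR1A1 reduces glucuronate. Several of these genes, AKR1C1 and AKR1B10 among them, are known targets of NRF2, the transcription factor that is held in check by KEAP1 and answers electrophiles and oxidants, and they are often highly expressed in squamous carcinomas.

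IL1B, the target of the hairpin, gave signals of 2677, 2611 and 2494 in LV-shNC and of 1569, 1569 and 1596 in LV-shIL-1β on its brighter probe set, a log2 fold change of -0.72 ± 0.04 (SE, n = 3 per group, limma, Benjamini-Hochberg adjusted p = 2.46e-05). On its other probe set the log2 fold change was -0.74 ± 0.04. Of the 9 squamous epithelial markers, 6 had a named probe set and all 6 passed the filter, with summed signals of 21687 to 22563 in LV-shNC and 19755 to 20148 in LV-shIL-1β. KRT5 (log2 fold change -0.32) and KRT14 (-0.35) were lower, while SFN (0.01), CDH1 (0.04), EPCAM (0.06) and DSG3 (-0.10) did not pass the test. The summed signal of 4 measured leukocyte markers was 76.9 to 82.9 in LV-shNC and 98.6 to 100.4 in LV-shIL-1β. Among them CD14 alone passed the filter and was higher (log2 fold change 0.51), while the defining marker PTPRC was near the lowest signals of the table (means of 2.68 and 2.64). Fibroblast markers (6 of 6 named) summed to 150.5 to 173.0 and 118.0 to 132.3. Of these, LUM (log2 fold change -1.14, limma adjusted p = 0.00541) and COL1A2 (-0.53, 0.013) were lower. Both passed the filter through LV-shNC alone, with LV-shIL-1β signals below 18.6. COL1A1 and PDGFRB did not pass the test on their brightest kept probe set, but 2 of the 4 kept probe sets of COL1A1 were called lower. Endothelial markers (4 of 4) summed to 62.0 to 65.4 and 60.5 to 62.1, and hepatocyte markers (3 of 3) to 42.4 to 46.0 and 34.1 to 41.4, and no value was at 0. RNA integrity, as log2 of the 3′ over the 5′ signal, was -0.056 to 0.007 for GAPDH in LV-shNC and 0.024 to 0.051 in LV-shIL-1β, while for ACTB it was 0.297 to 0.551 and 0.334 to 0.438. The squamous, fibroblast, leukocyte and hepatocyte sums and the GAPDH ratio did not overlap between groups, and neither did the called members below. Their part in the members' changes was not tested.

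The genes of the AKR1C cluster are similar in sequence, and their windows around the transcription start are compared here. These windows lie mostly before the start, and no probe sequence was compared. They therefore do not show which transcripts a probe set can tell apart. The windows from 250 bases before to 50 bases after the transcription start are shown for AKR1C1, AKR1C2 and AKR1C3, as given by RefSeq (GRCh38.p14). They were chosen after kept probe sets named for the first 2 genes were seen to rise, while that of AKR1C3 did not. Most of those probe sets can also bind similar transcripts, so a joint change of the 2 genes is not shown. Any part of the windows in the changes was not tested. AKR1C1 lies at chr10:4963165-4963464 on the plus strand, AKR1C2 at chr10:5003808-5004107 on the minus strand, and AKR1C3 has a window for each of 2 starts, at chr10:5048531-5048830 and chr10:5094164-5094463, both on the plus strand. Capitals mark the bases that differ, or have no partner, inside the part that overlaps in a pairwise alignment, with AKR1C2 for the AKR1C1 window and with AKR1C1 for the others. Ends that hang over the other window are in lower case.
AKR1C1: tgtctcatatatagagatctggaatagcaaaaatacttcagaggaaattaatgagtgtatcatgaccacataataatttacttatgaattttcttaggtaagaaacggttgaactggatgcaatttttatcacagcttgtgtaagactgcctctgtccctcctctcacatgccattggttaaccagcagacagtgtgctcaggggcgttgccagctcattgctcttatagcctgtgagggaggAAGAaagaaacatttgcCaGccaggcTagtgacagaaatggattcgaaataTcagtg
AKR1C2: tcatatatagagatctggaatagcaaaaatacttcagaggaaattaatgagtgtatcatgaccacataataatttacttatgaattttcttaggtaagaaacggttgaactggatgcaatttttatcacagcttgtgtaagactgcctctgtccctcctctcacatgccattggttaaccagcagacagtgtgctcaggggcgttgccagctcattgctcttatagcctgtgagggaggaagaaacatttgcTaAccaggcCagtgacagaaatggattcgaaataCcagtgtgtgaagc
AKR1C3 start 1: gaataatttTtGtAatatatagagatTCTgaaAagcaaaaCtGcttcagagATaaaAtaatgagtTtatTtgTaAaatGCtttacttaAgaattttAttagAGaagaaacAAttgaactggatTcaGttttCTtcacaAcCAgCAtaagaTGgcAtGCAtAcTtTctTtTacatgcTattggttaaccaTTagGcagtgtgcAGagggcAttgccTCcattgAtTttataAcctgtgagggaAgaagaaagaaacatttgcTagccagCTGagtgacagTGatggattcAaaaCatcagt
AKR1C3 start 2: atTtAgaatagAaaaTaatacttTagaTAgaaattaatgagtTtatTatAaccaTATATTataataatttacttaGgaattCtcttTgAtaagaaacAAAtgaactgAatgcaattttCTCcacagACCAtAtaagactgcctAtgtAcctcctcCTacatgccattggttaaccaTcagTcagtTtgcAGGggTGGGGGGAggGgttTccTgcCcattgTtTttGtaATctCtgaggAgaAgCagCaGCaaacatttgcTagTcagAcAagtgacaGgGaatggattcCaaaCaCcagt
Over 292 aligned bases the AKR1C1 and AKR1C2 windows were identical at 288 and different at 4 (98.6% identical), and 4 further bases inside the overlap stood only in AKR1C1. The ends, 4 bases of the AKR1C1 window and 8 of the AKR1C2 window, hung over and were not compared. The AKR1C3 windows were 77.7 to 80.6% identical to those of AKR1C1 and AKR1C2 over 4 pairs, counted over aligned bases. Bases without a partner inside the overlap were left out of these percentages. Per pair they were 0 to 8 in the AKR1C1 or AKR1C2 window and 1 to 21 in the AKR1C3 window. Neither TGACNNNGC, the core of the antioxidant response element that NRF2 binds, nor TGANTCA, the AP-1 site, was found on either strand of these 4 windows, nor in the 2 windows of AKR1B1 or the 1 of AKR1A1. Of all 35116 windows of this length, 13.3% held the first motif and 7.71% the second. These counts describe the letters of the windows only. AKR1B10 has no window in the table used.

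Of the 10 single-gene probe sets, 7 passed the filter on low signals (at least 3 of 6 arrays above a signal of 18.6, the median of all values). Of these, 6 were higher in LV-shIL-1β and 0 were lower (limma, Benjamini-Hochberg adjusted p under 0.05 over all 27566 probe sets kept). Over all kept probe sets 7.05% were called in either direction and 3.68% were called higher. The same 6 had no overlap between the groups, against 27.9% of all kept probe sets. Of the 6, 4 are _x_at probe sets of AKR1C1 and AKR1C2, whose probes can also bind similar transcripts. The 6 are therefore not separate measurements, and their count is not comparable to a share of unrelated probe sets. The median log2 fold change of the 7 was 0.42, and that of all kept probe sets was 0.01. The increases were moderate, between 25.8% and 46.6%, and no kept member reached a fold of 1.5. Without LV-shNC array 2 or LV-shIL-1β array 2 or 3 the number called was 4 of 7. In bulk RNA, more cells with a transcript and more transcript per cell cannot be told apart.

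AKR1C1, which inactivates progesterone and reduces aldehydes from oxidised lipids, was brightest on probe set 204151_x_at. Its signals were 715, 725 and 776 in LV-shNC and 923, 1044 and 1001 in LV-shIL-1β. All 3 LV-shIL-1β arrays lay above all 3 LV-shNC arrays. The mean rose from 739 ± 32.7 to 989 ± 61.3 (SD, n = 3), with a log2 fold change equal to 0.42 ± 0.06 (SE, limma adjusted p = 0.00249), or 33.8% (95% confidence interval 22.8 to 45.8%).

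A second AKR1C1 probe set, 216594_x_at, gave 442, 388 and 433 in LV-shNC and 479, 561 and 550 in LV-shIL-1β. The groups did not overlap, but LV-shIL-1β array 1 lay near the highest LV-shNC array. The log2 fold change was 0.33 ± 0.07 (SE, limma adjusted p = 0.0265), or 25.8% (12.3 to 40.9%). The call was lost when LV-shNC array 2 (limma adjusted p = 0.0887) or 3 (0.0607) was left out, and likewise for LV-shIL-1β array 2 (0.127) or 3 (0.0948).

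The dimmer AKR1C1 probe set 217626_at gave 33.6, 33.0 and 41.0 in LV-shNC and 47.7, 51.7 and 48.2 in LV-shIL-1β. Array 3 stood highest in LV-shNC, still below every LV-shIL-1β array. The mean went from 35.9 ± 4.47 to 49.2 ± 2.18 (SD, n = 3), with a log2 fold change equal to 0.46 ± 0.10 (SE, limma adjusted p = 0.0218), or 37.7% (18.5 to 60.0%). Without LV-shNC array 1 (limma adjusted p = 0.0621) or 2 (0.075) or LV-shIL-1β array 2 (0.105) or 3 (0.0639) it did not pass. Its name carries no letter before _at, whereas _x_at marks probe sets with probes that can also bind other, similar transcripts, which holds for all other kept probe sets of AKR1C1 and AKR1C2.

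The other 2 AKR1C1 probe sets did not pass the filter and have no call. On 1555856_s_at the signals were 18.0, 14.9 and 18.7 in LV-shNC and 13.5, 15.1 and 13.5 in LV-shIL-1β, and the groups overlapped. On 1555855_at they ran from 5.00 to 6.86 in LV-shNC and from 4.77 to 6.19 in LV-shIL-1β. Their log2 fold changes in the fit of all probe sets were -0.29 ± 0.11 and -0.07 ± 0.14 (SE), so the increase was not seen on every AKR1C1 probe set.

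AKR1C2, which inactivates dihydrotestosterone, had higher signals on both probe sets that passed the filter. Both are _x_at probe sets, whose probes can also bind similar transcripts, so a rise of AKR1C2 apart from AKR1C1 is not shown. On 209699_x_at the signals were 509, 478 and 503 in LV-shNC and 639, 732 and 736 in LV-shIL-1β. The groups were well apart, with LV-shIL-1β array 1 the lowest of its group, as it was on each _x_at probe set of AKR1C1 and AKR1C2. The mean rose from 497 ± 16.3 to 703 ± 54.8 (SD, n = 3), with a log2 fold change equal to 0.50 ± 0.06 (SE, limma adjusted p = 0.00192), or 41.2% (28.4 to 55.4%).

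On the AKR1C2 probe set 211653_x_at the signals were 213, 206 and 229 in LV-shNC and 268, 309 and 290 in LV-shIL-1β, again with no overlap. The log2 fold change was 0.42 ± 0.07 (SE, limma adjusted p = 0.00706), or 33.4% (20.0 to 48.3%). A further AKR1C2 probe set, 244266_at, lay between 3.86 and 4.82 on all arrays, below the filter, with a log2 fold change of -0.04 ± 0.12. The probe set that lists both AKR1C2 and AKR1C1, 1555854_at, was also below the filter and has no call. It gave 4.18, 7.30 and 7.27 in LV-shNC and 10.7, 11.1 and 10.8 in LV-shIL-1β, a log2 fold change of 0.85 ± 0.19 (SE) between signals that were all far below 18.6.

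AKR1C3, which makes testosterone and F-series prostaglandins, did not follow its neighbours. Its probe set 209160_at gave 163, 167 and 191 in LV-shNC and 166, 172 and 177 in LV-shIL-1β. All 3 LV-shIL-1β arrays lay within the range of the LV-shNC arrays. The means were 174 ± 15.3 and 172 ± 5.34 (SD, n = 3), and the log2 fold change was -0.01 ± 0.07 (SE, 95% confidence interval -0.17 to 0.15, limma adjusted p = 0.94). The sign of this value turned when arrays were centred on their medians (0.0024), without LV-shNC array 3 (0.0581) and without LV-shIL-1β array 1 (0.0101).

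Because AKR1C3 and the other members were read on the same arrays, the log2 ratio of each of the 6 called probe sets to AKR1C3 was compared between the groups. This comparison was chosen after the values were seen, with the 6 taken because they were called and AKR1C3 because it was not. All 6 ratios also share AKR1C3. Their separation is thus largely given by the choice and is no further evidence. The ratio was higher in LV-shIL-1β by 0.43 ± 0.05, 0.34 ± 0.10 and 0.47 ± 0.05 for the AKR1C1 probe sets 204151_x_at, 216594_x_at and 217626_at (SE, n = 3 per group). For the AKR1C2 probe sets 209699_x_at and 211653_x_at it was higher by 0.51 ± 0.09 and 0.43 ± 0.06. In each of the 6 ratios the groups did not overlap, and the two-sided exact permutation p was 0.1 for every one, the smallest that 3 against 3 arrays can give (Benjamini-Hochberg adjusted p = 0.1 over the 6), so this design could not reach the threshold.

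AKR1B10, a reductase of retinal and other aldehydes, had the largest log2 fold change of the kept members. Its probe set 206561_s_at gave 45.2, 46.9 and 54.1 in LV-shNC and 69.5, 71.0 and 73.1 in LV-shIL-1β. All LV-shIL-1β arrays were above all LV-shNC arrays and lay close together. The mean rose from 48.7 ± 4.70 to 71.2 ± 1.80 (SD, n = 3), with a log2 fold change equal to 0.55 ± 0.08 (SE, limma adjusted p = 0.00433), or 46.6% (29.1 to 66.4%), a fold of 1.47. Its log2 ratio to AKR1C3 rose by 0.56 ± 0.01 (SE). That change is the sixth of the ratios tested above and, like them, is no further evidence. Its SE comes from the spread of the ratios alone, without limma, and is not comparable to the SE of the log2 fold change. The ending _s_at marks probes shared by several transcripts, and AKR1B15, the close relative next to AKR1B10 on the chromosome, has no named probe set here, and whether this probe set also reads AKR1B15 was not tested.

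**Figure D1:**
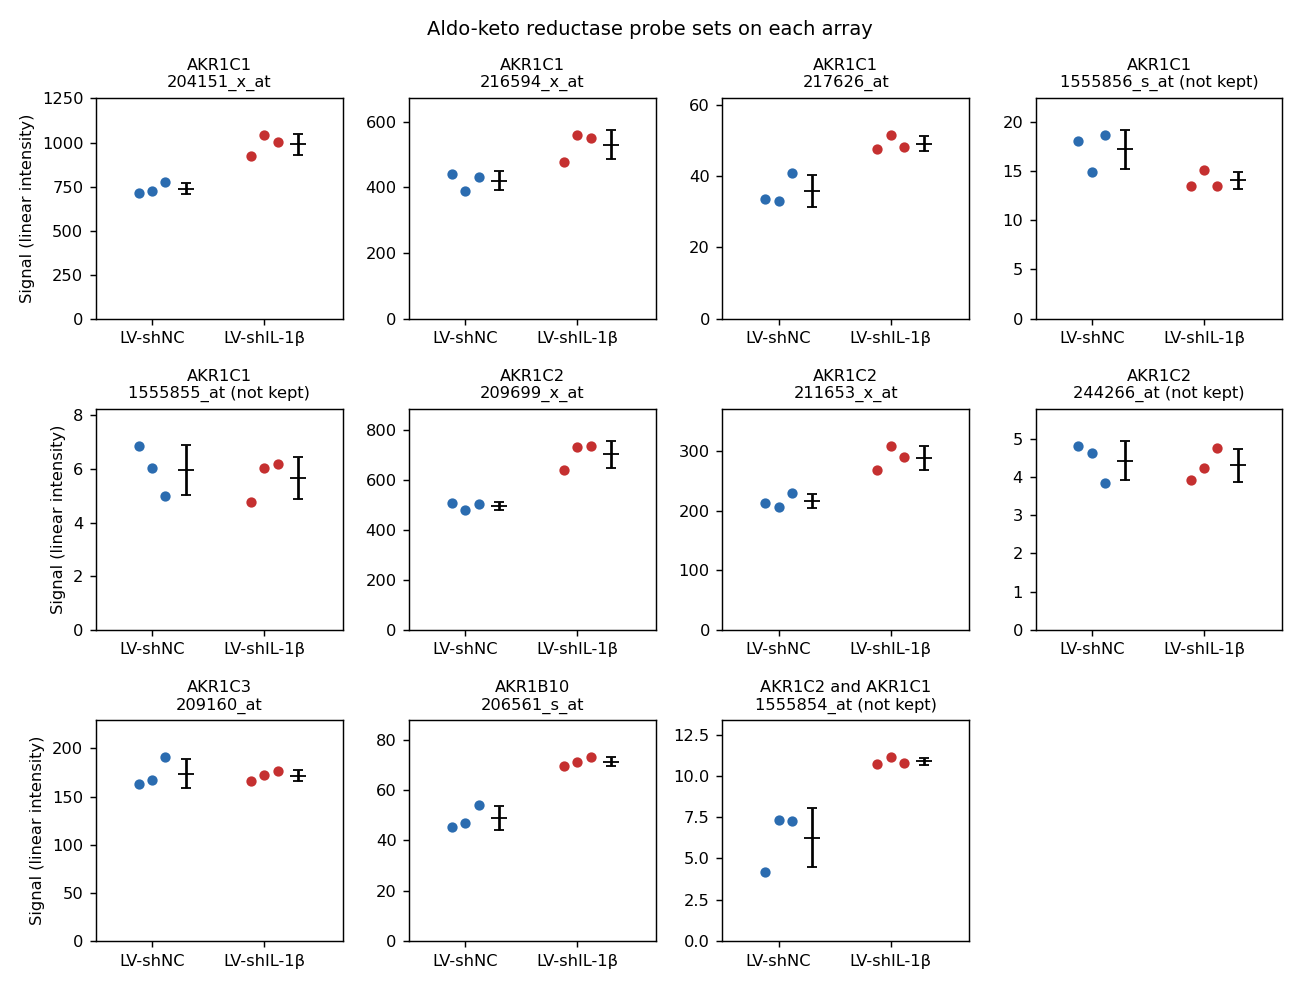
Signal of each member probe set on each array (vertical axis, linear intensity from 0), where blue points are LV-shNC arrays and red points LV-shIL-1β arrays; black bars give mean and SD. The 6 called probe sets show separate groups, for example 739 against 989 for AKR1C1 204151_x_at and 48.7 against 71.2 for AKR1B10, while the groups of AKR1C3 overlap at 174 and 172.

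When all 27566 kept probe sets were ranked by log2 fold change, AKR1B10 stood at place 148 from the top and AKR1C2 209699_x_at at place 219. The AKR1C1 probe sets 217626_at, 204151_x_at and 216594_x_at stood at places 271, 402 and 870, and AKR1C2 211653_x_at at place 415. AKR1C3 stood at place 15656, near the middle.

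How far member probe sets varied together within the groups differed between pairs. As a description over 6 arrays, on which all probe sets were read from the same RNA, the correlation of deviations from the group means was 0.688 to 0.955 among the 4 _x_at probe sets of AKR1C1 and AKR1C2 (6 pairs, median 0.804). Between 217626_at and those 4 it was 0.313 to 0.788. With the 5 kept probe sets of AKR1C1 and AKR1C2 it was 0.333 to 0.875 for AKR1C3 and 0.245 to 0.877 for AKR1B10. AKR1B10 and AKR1C3 deviated together at 0.995, the highest of all 21 pairs. The group means of AKR1B10 differed and those of AKR1C3 did not. Over all 21 pairs the range was 0.245 to 0.995 and the median was 0.725. No pairs of other probe sets were compared, so whether such values are particular to the members was not tested. The 4 _x_at probe sets may bind each other's transcripts, so they are not separate measurements of the genes.

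**Figure D2:**
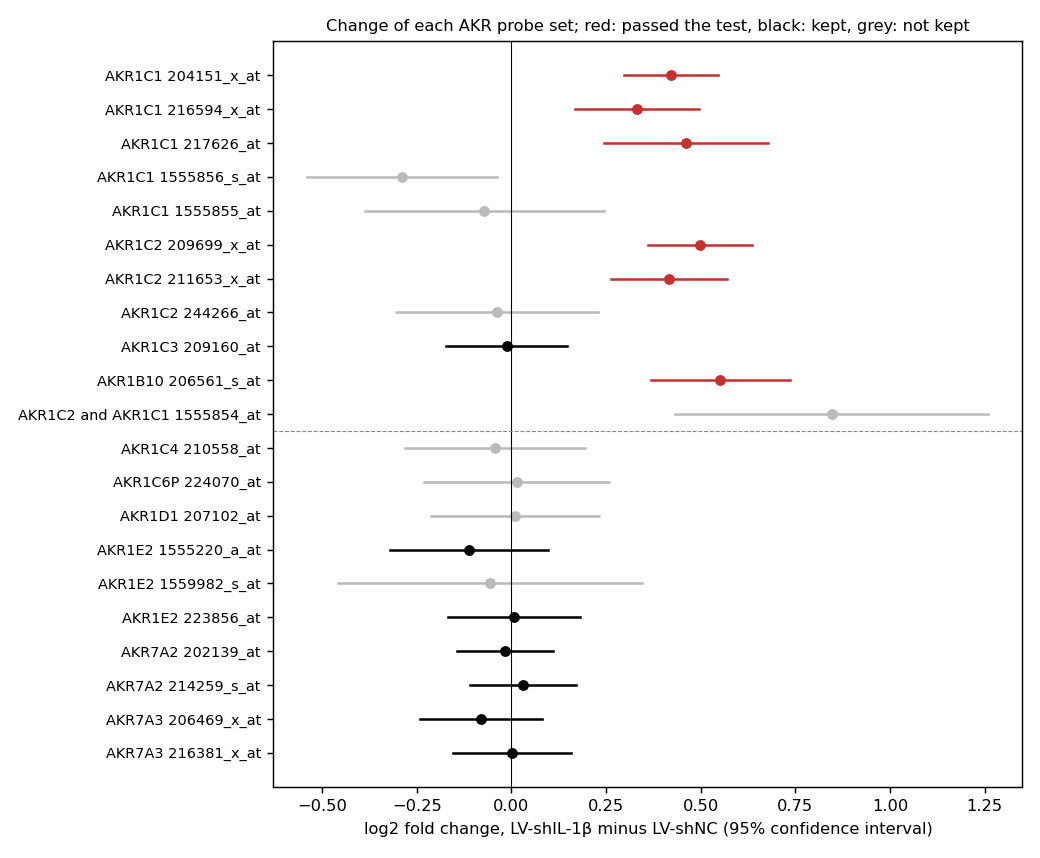
Log2 fold change of each aldo-keto reductase probe set, LV-shIL-1β minus LV-shNC, with its 95% confidence interval, for members above the dashed line and other family genes below it; red probe sets passed the test, black were kept and did not pass, and grey were not kept. Intervals of the 6 red probe sets lie above 0, and that of AKR1C3 runs from -0.17 to 0.15.

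The rest of the family did not give a call. Of 11 other aldo-keto reductase genes, 3 had no named probe set (AKR1B15, AKR1C8 and AKR7L) and 5 passed the filter. None of the 5 (AKR1E2, AKR7A2, AKR7A3, KCNAB1 and KCNAB2) passed limma's test, 0 had an unadjusted p under 0.05 by limma, and 0 by the methods' t-test. Their log2 fold changes ran from -0.08 for AKR7A3, which reduces dialdehydes of aflatoxin, to 0.19 for KCNAB1, a potassium channel subunit, with a median of -0.02. AKR1C4 and AKR1D1, liver enzymes of bile acid and steroid synthesis, were below the filter with LV-shNC means of 2.92 and 2.16.

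The lists that follow give the pathways around the members, each gene standing with its brightest kept probe set, and over all 12322 genes measured in this way 8.52% were called and the median log2 fold change was 0.00. Among NRF2 targets outside the family, 28 of 33 genes passed the filter, 5 were higher and 2 were lower, with a median of 0.07. GPX2, a glutathione peroxidase of epithelia, gave 58.1, 54.2 and 67.8 in LV-shNC and 96.3, 118.9 and 108.7 in LV-shIL-1β (log2 fold change 0.85 ± 0.10, SE, limma adjusted p = 0.00177). GCLM, a subunit of the enzyme that starts glutathione synthesis, went from 438 ± 28.2 to 579 ± 48.0 (SD, n = 3, 0.40 ± 0.07), a call lost without LV-shIL-1β array 2 (limma adjusted p = 0.0537). The cystine transporter SLC7A11 gave 192, 174 and 178 in LV-shNC and 242, 226 and 227 in LV-shIL-1β (0.35 ± 0.06). Biliverdin reductase B, BLVRB, was lower (-0.30 ± 0.05). The other 3 called genes fall outside the rule for naming and are given because their number is small. These were the malic enzyme ME1 (0.27 ± 0.04), the ferritin light chain FTL (0.15 ± 0.03, lost without LV-shIL-1β array 2, limma adjusted p = 0.0684) and the transporter ABCC1 (-0.18 ± 0.05, lost whichever array was left out, up to 0.146). NQO1 and HMOX1, the most used reporters of the pathway, had log2 fold changes of 0.12 ± 0.04 (limma adjusted p = 0.117) and 0.08 ± 0.09 (0.669). Both were chosen after their values were seen, and 1 of the 3 kept probe sets of NQO1 passed. Without LV-shIL-1β array 2 the list held 4 called genes.

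Of 10 regulators of NRF2, 9 passed the filter, 1 was higher and 2 were lower, with a median of 0.07. NFE2L2, which encodes NRF2, gave 1026, 1251 and 1131 in LV-shNC and 1138, 1058 and 1061 in LV-shIL-1β, and the groups overlapped (log2 fold change -0.06 ± 0.07, SE, limma adjusted p = 0.641). Its sign turned without LV-shNC array 2 (0.0103). KEAP1, the adaptor that marks NRF2 for destruction, gave 345, 335 and 318 in LV-shNC and 345, 418 and 394 in LV-shIL-1β (0.21 ± 0.07, limma adjusted p = 0.121). It passed the test without LV-shIL-1β array 1 (0.29, limma adjusted p = 0.0243) and with array weights (0.26, 0.0295). BACH1, a repressor at NRF2 binding sites, gave 116, 127 and 125 in LV-shNC and 90.1, 87.5 and 89.7 in LV-shIL-1β (-0.46 ± 0.06, limma adjusted p = 0.00304). BACH1 lies on chromosome 21, where 55 of 126 measured genes were lower, 0 were higher and the median log2 fold change was -0.22, and the part of this in the change of BACH1 was not tested. SQSTM1, an autophagy receptor that binds KEAP1, rose from 512 ± 24.9 to 703 ± 8.94 (SD, n = 3, 0.46 ± 0.05). NFE2L1, a relative of NRF2, was lower by little (-0.17 ± 0.04, limma adjusted p = 0.0491), and its call was lost whichever array was left out (up to 0.173).

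Among 42 other carbonyl reductases and aldehyde dehydrogenases, 34 passed the filter, 3 were higher and 5 were lower, with a median of -0.08. CBR1, a carbonyl reductase that shares quinone and prostaglandin substrates with the family, gave 582, 540 and 543 in LV-shNC and 364, 355 and 361 in LV-shIL-1β (log2 fold change -0.62 ± 0.05, SE, limma adjusted p = 0.000254). It is also a gene of chromosome 21. ALDH7A1, a lysine-degrading aldehyde dehydrogenase, fell from 587 ± 39.8 to 424 ± 8.48 (SD, n = 3, -0.47 ± 0.06). RDH10, which oxidises retinol to retinal, rose from 88.1 ± 6.11 to 129.8 ± 3.56 (SD, n = 3, 0.56 ± 0.07), and DHRS3, which reduces retinal to retinol, from 54.2 ± 1.26 to 77.6 ± 2.44 (0.52 ± 0.07). The other 4 called genes, outside the rule for naming, were HSD17B8 (-0.26 ± 0.05), HSD17B10 (0.23 ± 0.05), HSD17B12 (-0.18 ± 0.04) and PTGR1 (-0.25 ± 0.06). Leaving out LV-shNC array 2 or 3, or the LV-shIL-1β arrays with those numbers, ended the call of each of these 4, as did LV-shIL-1β array 1 for HSD17B12, with limma adjusted p up to 0.0883, 0.131, 0.106 and 0.149 in that order. The list held 4 called genes without LV-shNC array 2 or 3 or LV-shIL-1β array 2, and 5 without LV-shIL-1β array 3.

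Steroid and retinoid genes, of which 13 of 20 passed the filter, were higher for 3 and lower for 2, with a median of 0.03. RDH10 and DHRS3 belong to this list too. CRABP2, which carries retinoic acid to its receptor, gave 82.8, 86.4 and 73.7 in LV-shNC and 52.2, 53.3 and 62.7 in LV-shIL-1β (log2 fold change -0.53 ± 0.09, SE, limma adjusted p = 0.0093), and was lost without LV-shIL-1β array 2 (0.0601). The steroid sulfatase STS went from 74.7 ± 4.65 to 92.3 ± 3.47 (SD, n = 3, 0.31 ± 0.07), and missed the threshold without LV-shNC array 1 (limma adjusted p = 0.0878) or 2 (0.0984) or LV-shIL-1β array 2 (0.131) or 3 (0.0959). As the mean over its 3 kept probe sets STS had a log2 fold change of 0.15 (limma adjusted p = 0.114). CYP26B1, which degrades retinoic acid and is outside the rule for naming, was lower (-0.29 ± 0.07), a call lost whichever array was left out (limma adjusted p up to 0.139). Without LV-shNC array 2 or LV-shIL-1β array 3 the list held 3 called genes, and without LV-shIL-1β array 2 it held 2.

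Of 14 prostaglandin genes, 9 passed the filter, 2 were higher and 2 were lower, with a median of 0.01. PTGES, the inducible prostaglandin E synthase, gave 106, 104 and 115 in LV-shNC and 189, 189 and 180 in LV-shIL-1β (log2 fold change 0.78 ± 0.06, SE, limma adjusted p = 0.000254). PTGS2, the inducible cyclooxygenase, went from 43.4 ± 1.92 to 54.9 ± 1.62 (SD, n = 3, 0.34 ± 0.07), a call lost without any single array except LV-shNC array 3 (limma adjusted p up to 0.087). The 2 lower genes were CBR1 and PTGR1, a reductase of prostaglandins and leukotrienes, whose values stand above. As the mean over its probe sets PTGR1 had a log2 fold change of -0.16 (limma adjusted p = 0.0465). The list held 2 called genes without LV-shNC array 2 or LV-shIL-1β array 2 or 3. Of 6 polyol and glucuronate enzymes, which act beside AKR1B1 and AKR1A1, 5 passed the filter and 0 passed limma's adjusted test, 1 had an unadjusted p under 0.05 by limma and 1 by the methods' t-test, and the median was -0.05. Probe sets of a gene did not always move alike in these lists. Some genes that were not called on their brightest kept probe set had at least 1 other that passed in the same direction. These were NQO1, CUL3, DHRS9, SRD5A1, CYP1B1 and PTGS1, which the counts of called genes leave out. Of the called genes above with several kept probe sets, PTGES passed on both of its probe sets, whereas at least 1 probe set did not pass in the same direction for GCLM, SLC7A11, ME1, FTL, ABCC1, SQSTM1, NFE2L1, ALDH7A1, RDH10, HSD17B12, PTGR1, STS and CYP26B1.

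**Figure D3:**
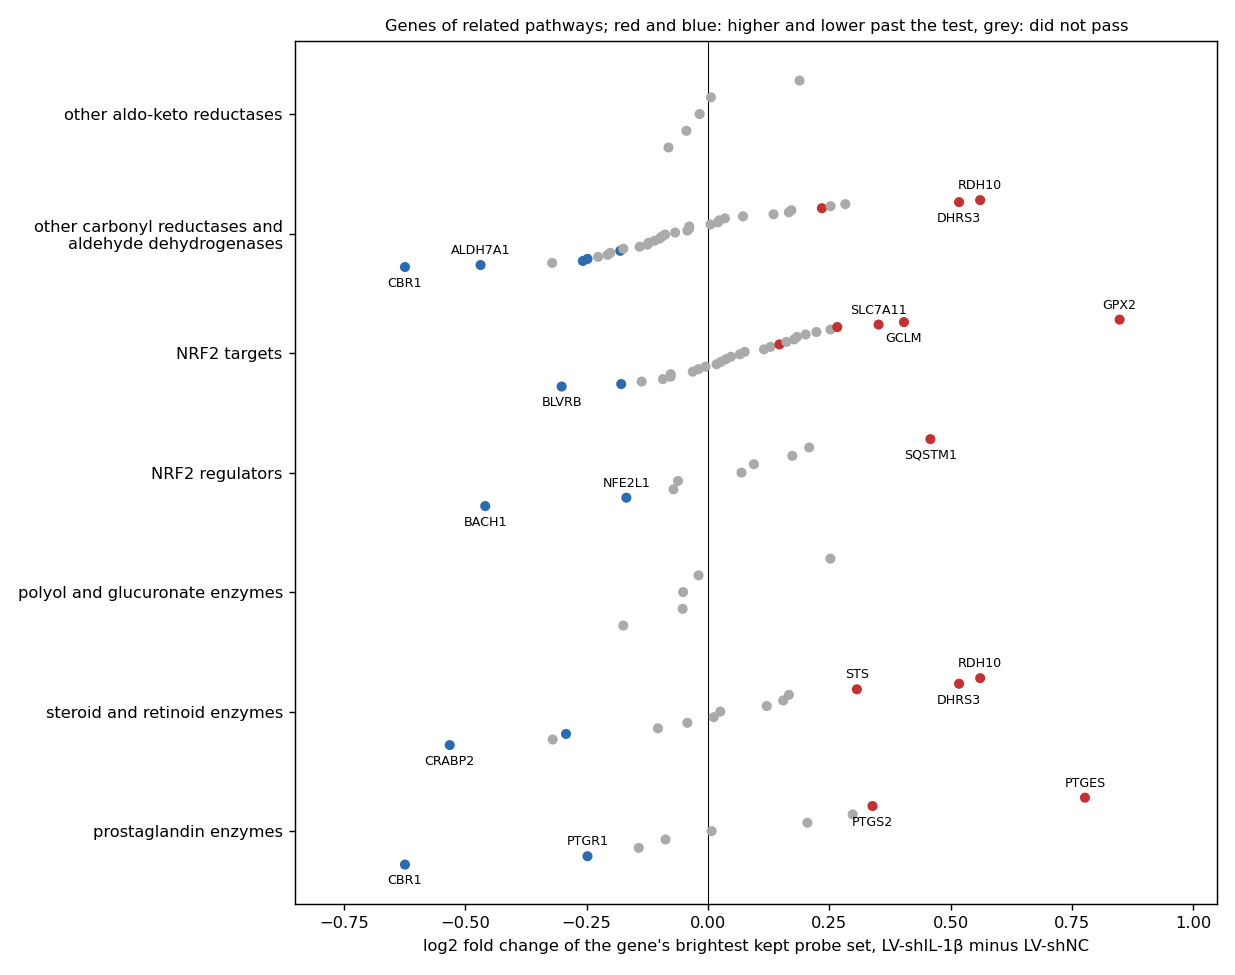
Log2 fold change of each gene kept by the filter in the related lists, LV-shIL-1β minus LV-shNC (horizontal axis), ordered by value within a list. The lists include the other aldo-keto reductases. Each point is 1 gene. Red and blue points were higher and lower past the test, grey ones did not pass, and up to 4 called genes per list are named. Called genes lie on both sides of 0 in the carbonyl reductase, NRF2, steroid and retinoid, and prostaglandin lists, with GPX2 at 0.85 and CBR1 at -0.62.

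The genes whose pattern over the 6 arrays was most like that of each called member were sought among 12318 genes that are not members. The measure was the root mean square difference of log2 signals, centred on the LV-shNC mean. The similar log2 fold changes of the genes found follow from this choice and are a description only. For AKR1C1 204151_x_at the nearest were DKK1, a secreted inhibitor of Wnt signalling (difference 0.0281, log2 fold change 0.41), S100A12, a calcium-binding protein (0.0296, 0.41), and GAL, the precursor of galanin (0.0375, 0.42). For AKR1C2 209699_x_at they were ZDHHC23, a palmitoyltransferase (0.0242, 0.53), OPN3, an opsin (0.0311, 0.48), and GPAT3, a glycerol-phosphate acyltransferase (0.0377, 0.46). For AKR1B10 they were PHTF2 (0.0369, 0.57), RDH10 (0.0406, 0.56) and AVL9 (0.0483, 0.57). Some of these calls rested on single arrays. S100A12 did not pass without LV-shIL-1β array 2 (limma adjusted p = 0.0658) or 3 (0.0516), GAL without LV-shIL-1β array 2 (0.0642), and GPAT3 without LV-shNC array 2 (0.0541) or LV-shIL-1β array 2 (0.0724) or 3 (0.0639). As the mean over its probe sets, PHTF2 had a log2 fold change of 0.06 and did not pass, and AVL9 had 0.32 and passed.

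Genes next to the members on the chromosome were compared over 8 protein-coding genes on each side. Around the AKR1C cluster, 10 of 16 passed the filter, with 2 higher, 0 lower and a median log2 fold change of 0.12. The nearest measured genes were AKR1E2 (0.01 ± 0.08, SE) on one side and NET1, an exchange factor for RhoA, on the other (0.25 ± 0.06, limma adjusted p = 0.0356). NET1 missed the threshold without LV-shNC array 1 (0.0941) or 3 (0.105) or LV-shIL-1β array 1 (0.0766) or 2 (0.151), and the other called gene, TASOR2 (0.21 ± 0.05), lost its call under removal of any array (limma adjusted p up to 0.144). The sign of AKR1E2 turned under quantile normalization (-0.0034). On both NET1 and TASOR2 a single kept probe set passed, of 2 and 4.

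Around AKR1B1 and AKR1B10, 10 of 16 neighbours passed the filter, 0 were higher and 1 was lower, with a median of -0.04. The nearest measured genes were SLC35B4, a sugar-nucleotide transporter (0.03 ± 0.06, SE), and BPGM, an enzyme of red cell glycolysis (-0.10 ± 0.12), and the lower gene was PODXL, a sialomucin (-0.46 ± 0.06). The sign of SLC35B4 turned under quantile normalization (-0.0030), and that of BPGM without LV-shIL-1β array 3 (0.0236). Around AKR1A1, 12 of 16 passed, 2 were higher and 0 were lower, with a median of 0.02. Its nearest measured genes were PRDX1, a peroxiredoxin (0.03 ± 0.03, SE), and NASP, a histone chaperone (-0.02 ± 0.04, with the sign turned without LV-shNC array 1). The 2 higher genes were PIK3R3 (0.36 ± 0.06) and TOE1 (0.36 ± 0.08), and TOE1 did not pass without any single array except LV-shIL-1β array 1 (limma adjusted p up to 0.151).

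**Figure D4:**
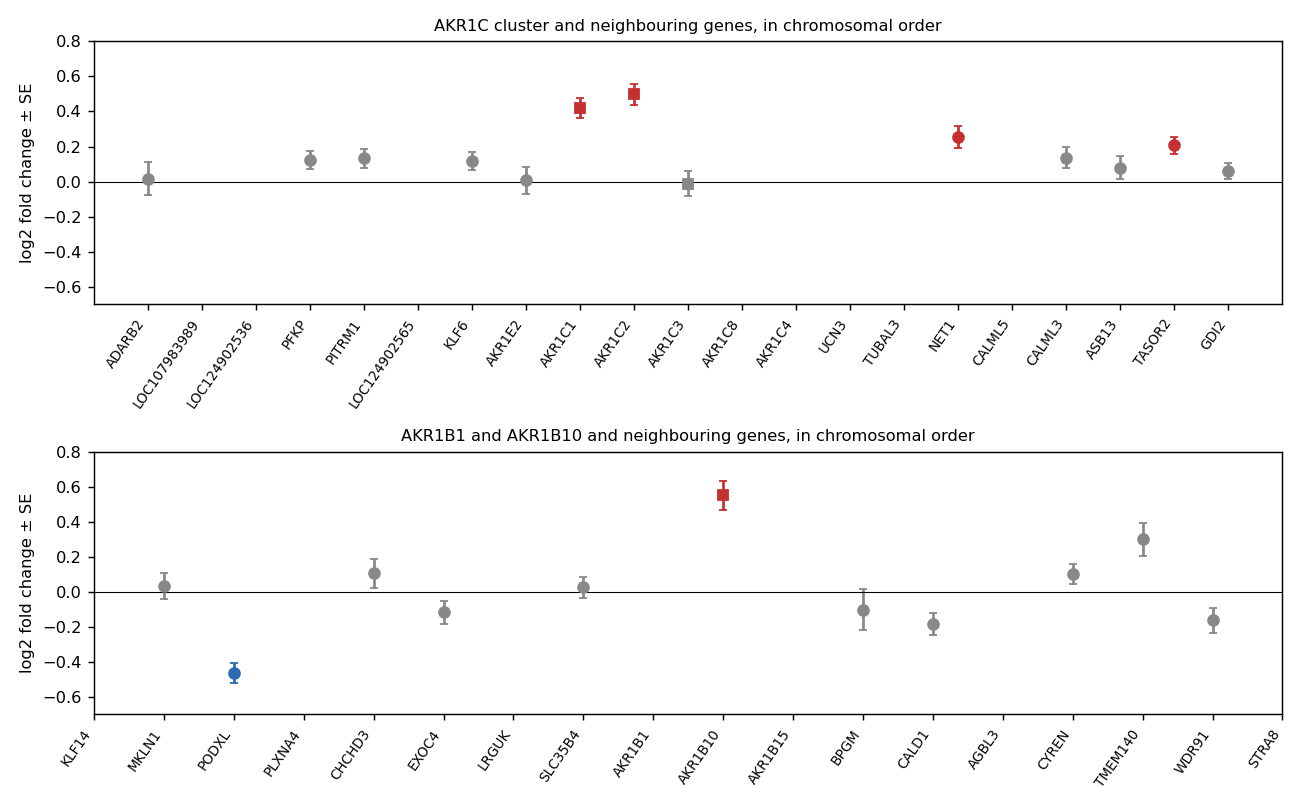
Log2 fold change with its SE, LV-shIL-1β minus LV-shNC, for AKR1C cluster genes (upper panel), AKR1B1 and AKR1B10 (lower panel) and their neighbours in chromosomal order. Squares are members, circles are neighbours, and red and blue are higher and lower past the test. A gene without a mark had no probe set that was named and passed the filter. AKR1C1 (0.42) and AKR1C2 (0.50) stand beside AKR1C3 (-0.01), and AKR1B10 (0.55) beside BPGM (-0.10).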

How the data were processed

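Gene expression was measured on 6 arrays of Cal27 cells, 3 per group, grouped by their labels. The authors deposited linear intensities, from 1.38 to 10502, for 54675 probe sets. MAS5 is named in the submitters' processing notes, with its version and any further normalization not given in the sources used here. The 6 most frequent endings at 4 decimals made up 4.36% of the values, so a later step that shares values across arrays and narrows their spread is possible and was not tested. Array medians were 18.4 to 18.9, no 2 arrays shared over 1.17% of their values, and precision is limited by how few arrays there are.

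Signals were taken to log2 with no further normalization, and 62 control probe sets were left out. Probe sets above 18.6 (the median) on at least 3 arrays were kept (27566). The test was limma's (version 3.58.1, R 4.3.3), fitted with lmFit and eBayes with trend, two-sided, with Benjamini-Hochberg adjustment over all kept probe sets and a threshold of 0.05. The scripts were tested on simulated data. The alternatives were other scaling, pseudocount, filter and variance settings, the methods' t-test, a replicate block and leaving out each array.

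Names came from the platform annotation (41097 probe sets with 1 symbol, 1801 with several, 11777 with none). Members and lists were chosen with earlier results of these data known, so no list is independent evidence. Named were all members, IL1B, up to 4 called genes per list with the largest change, NFE2L2, KEAP1 and BACH1, the 3 nearest genes per called member (by its brightest probe set) and the nearest measured neighbour on each side. Other names were chosen after their values were seen. Promoter windows and gene order came from RefSeq (GRCh38.p14), windows were aligned with Biopython 1.88, and AKR1C1, AKR1C2, AKR1C3, AKR1B1 and AKR1A1 had windows.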

Additional observations from a re-analysis of the deposited data

How the results depend on the processing

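The direction of the 6 called member probe sets held under all 15 alternatives, but most of these could not have turned it. The filter, variance, block and t-test settings reuse the same log2 values. With groups that do not overlap, a pseudocount, array weights or leaving out 1 array cannot turn the sign either. Only median centring and quantile normalization shift the arrays against each other. The number called was 6 in the reported setting, 5 with no variance trend, 4 with a replicate block and 4 to 6 with 1 array left out. It was 0 with the methods' t-test after Benjamini-Hochberg adjustment (6 at an unadjusted p under 0.05). Under that t-test the log2 fold changes were unchanged, with adjusted p of 0.0836 (AKR1C1 204151_x_at, 0.42), 0.19 (216594_x_at, 0.33), 0.149 (217626_at, 0.46), 0.0775 (AKR1C2 209699_x_at, 0.50), 0.105 (211653_x_at, 0.42) and 0.0807 (AKR1B10, 0.55). AKR1C1 216594_x_at (0.33) also missed the threshold with no trend (limma adjusted p = 0.0675) and ran from 0.27 to 0.40 with 1 array left out, and 217626_at ran from 0.41 to 0.56. With the replicate block the first had an adjusted p of 0.11 and the second (0.46) of 0.0773. Arrays of the same number deviated from their group means with correlations of -0.394, -0.112 and -0.214, so the numbers were not taken to pair the arrays.

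Over all probe sets 1943 were called, against 568 with the replicate block, 267 with the t-test, 1348 with no trend, 2827 with array weights and 696 to 1808 with 1 array left out. Over all fixed lists and neighbours 28 genes were called, against 11 with the block, 8 with the t-test and 13 to 25 with 1 array left out. Values near 0 changed sign, and the cause was not tested. AKR1C3 was 0.0024 after median centring and -0.0587 to 0.0581 with 1 array left out. NFE2L2 was -0.13 to 0.0103 with 1 array left out, and BPGM -0.17 to 0.0236. AKR1E2 was -0.0034 after quantile normalization, -0.0087 with array weights, -0.0531 as the mean of its probe sets, -0.11 by its most variable probe set and -0.0271 to 0.0419 with 1 array left out. SLC35B4 was -0.0030, -0.0608, -0.0812 and -0.0055 to 0.0489 under the first, the third, the fourth and the last of these. NASP was 0.0236 as the mean, 0.19 by the most variable probe set and -0.0325 to 0.0133 with 1 array left out. Of 612 values of the 36 genes that the naming rule gave beside the members and IL1B, 500 kept direction and call, 94 lost the call, 2 gained it and 16 changed sign.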
